A study of Danio rerio with 6 samples.

Results

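The data described here are the liver transcript levels of 10 enzymes that build cholesterol, chosen by gene symbol and found once each among 31953 gene IDs in both deposited tables. In pathway order they are hmgcs1 (ENSDARG00000103025), hmgcra (ENSDARG00000052734), idi1 (ENSDARG00000019976), fdps (ENSDARG00000040890), fdft1 (ENSDARG00000101062), sqlea (ENSDARG00000079946), lss (ENSDARG00000061274), cyp51 (ENSDARG00000042641), msmo1 (ENSDARG00000055876) and dhcr7 (ENSDARG00000103226). Adult male zebrafish (Danio rerio) were kept for 3 weeks in flow-through tanks of 80 L, with 40 fish in 1 tank per group. The control tank received the vehicle ethanol, another 1000 nM of 17β-estradiol (E2, the main natural estrogen) and the last 100 nM of nonylphenol (NP, an alkylphenol used to make non-ionic surfactants that can bind estrogen receptors), both dissolved in ethanol. Each group has 2 RNA-seq libraries, and how many fish went into each is not in the labels. The p-values therefore rest on the difference between libraries of 1 tank, possibly only technical, and tank and treatment cannot be told apart. Age, strain and genotype are not given in the labels used here. Because whole liver was sequenced, fewer cells of a type and less RNA per cell cannot be told apart.

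Animal cells make cholesterol from acetyl-CoA. Hmgcs1 joins acetoacetyl-CoA and acetyl-CoA, and hmgcra, an HMG-CoA reductase and the target of statins, turns the product into mevalonate in the step that limits the rate of the pathway. Idi1 and fdps make the isoprenoid farnesyl diphosphate, which fdft1 joins into squalene, the first product committed to sterols. Sqlea and lss oxidise and close squalene into lanosterol, and cyp51, msmo1 and dhcr7 carry out later steps toward cholesterol. In vertebrates the transcription factor SREBP-2 is known to raise most of these genes together when the endoplasmic reticulum is short of sterol. The liver is a main site of this synthesis, and in egg-laying females it also exports lipid bound to vitellogenin, the estrogen-induced yolk precursor.

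The deposited tables compare E2 with control and NP with control and hold 1 mean per gene over the 4 libraries of a comparison. Whole reads per library were solved from these means, with a unique solution for all 10 enzymes. Since a solved library cannot be tied to a sample label, each is named by its size factor, as the deeper or the shallower of its group. Over the solved genes the deeper and shallower libraries held 517721 and 324273 reads in control, 258151 and 22145 in E2, and 357271 and 398722 in NP. The NP pair had nearly equal size factors. Normalised reads are reads divided by the size factor and given at the depth of the deeper control, so that 1 read is worth 1.55 normalised reads in the shallower control, 2.40 and 14.2 in the deeper and shallower E2 libraries, and 1.76 and 1.81 in NP. The shallow E2 library thus gives coarse values, and a gene with no read there may have up to 3 reads' worth, or 42.6 normalised reads, by counting error alone. As a check of the exposure, 8 of 8 vitellogenin genes with reads rose in E2, by 6.50 to 9.87 on the log2 scale of the authors' deposited table, and 7 of 7 in NP, by 3.69 to 7.69.

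E2 was compared with control to ask what a strong natural estrogen does to the male liver. Of the 10 enzymes 1 rose, hmgcra, 0 fell and 9 missed an adjusted p of 0.05 (2 of them, fdft1 and lss, had no adjusted p) in the authors' deposited table. Over all genes with an adjusted p, 5.77% passed, 2.1% upward and 3.67% downward. The enzymes did not share a direction: 4 of 10 had both E2 libraries above both controls (7.08% of genes with at least 10 reads did), 5 of 10 had both below (36.4% of genes; fdft1, 1 of the 5, had too few reads for a difference to be detectable), and cyp51 overlapped. lss, another of the 5, had no read in the shallower E2 library. By counting error alone its level there may exceed that of the lower control. The median log2 fold change of the 10 was 0.06 in the authors' deposited table, and 0.61 without fdft1, which had no E2 read. The median was -0.52 over 17208 genes with reads and -0.22 over the 3241 genes with an adjusted p.

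The rise of hmgcra was large and uneven. Its reads were 187 and 92 in the deeper and shallower controls and 4483 and 23 in the deeper and shallower E2 libraries. These are 187 and 143 normalised reads in control and 10767 and 327 in E2. Both E2 libraries lay above both controls, but nearly all of the excess was in the deeper E2 library. The authors' deposited table gave a log2 fold change of 4.47 ± 1.3 (SE, 2 libraries a group; Wald test of the authors, adjusted p = 0.0198). On solved reads plus 1, the log2 ratio was 5.06 with all libraries, 6.02 without the shallower E2 library and 0.98 without the deeper one. Adjustment over all genes with a deposited p gave an adjusted p of 0.103, and limma-voom on the solved reads gave 3.82 ± 1.4 with an adjusted p of 0.294, in a fit that called 2 of 10727 genes (0.0186%).

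The 2 E2 libraries differed by 32.9-fold in hmgcra. Over the 1518 genes that averaged 50 or more normalised reads in E2 with reads in both libraries, the median gene differed by 3.16-fold. Of these, 20 genes, hmgcra included, were as far or farther above in the deeper library. Genes with no read in the shallower library were not counted, although they too stand higher in the deeper one. The other enzymes that could be compared sat near the middle of that distribution. hmgcs1 was 1.09-fold, sqlea 1.86-fold and idi1 2.49-fold as high in the deeper as in the shallower E2 library. The control libraries differed by 1.31-fold in hmgcra and the NP libraries by 1.01-fold.

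**Figure D1:**
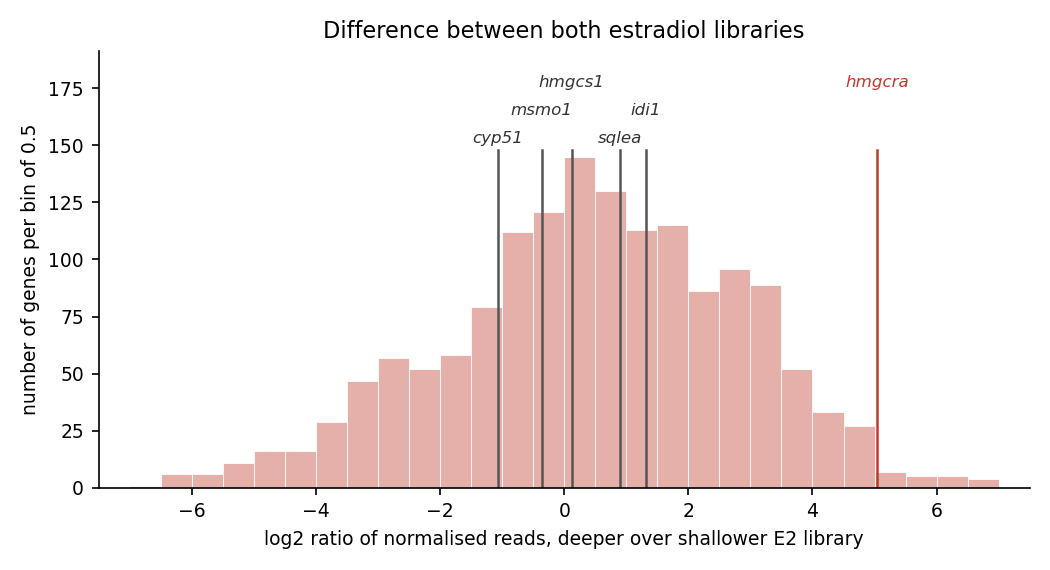
Histogram of the log2 ratio of normalised reads in the deeper over the shallower E2 library, with lines at the cholesterol synthesis enzymes. It covers 1518 genes averaging 50 or more normalised reads in E2 with reads in both E2 libraries. The line of hmgcra, at a ratio of 32.9, stands in the right tail, while those of cyp51, msmo1, hmgcs1, sqlea and idi1 lie near the centre.

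The genes whose pattern over the 6 libraries was most like that of hmgcra were also highest in the deeper E2 library. A choice by likeness to hmgcra favours such genes, so this is a description. By Pearson's r of log2(normalised reads + 1), among 3511 genes with at least 100 reads outside the enzymes, they were sik1 (r = 0.99), which encodes salt-inducible kinase 1, SLC7A1 (2 of 2) (0.98), a cationic amino acid transporter, stag2b (0.98), a cohesin subunit, cdkn1bb (0.97), a cyclin-dependent kinase inhibitor, and pim2 (0.97), a protein kinase. The reads of sik1 were 435 in the deeper E2 library and 1 in the shallower, with 10 and 9 in control and 11 and 9 in NP. SLC7A1 (2 of 2) had 286 reads in the deeper E2 library and 1 read in all the other libraries together.

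3 further enzymes of the early and middle pathway, hmgcs1, idi1 and sqlea, had both E2 libraries above both controls without passing the test. hmgcs1 had 179 and 94.8 normalised reads in control and 401 and 369 in E2, which put the E2 mean at 2.81 times the control mean. idi1, an isomerase that activates the isoprenoid unit, had 296 and 134 in control and 848 and 341 in E2, or 2.77 times. sqlea, a squalene epoxidase, had 36.0 and 35.8 in control and 132 and 71.0 in E2, or 2.83 times. The lowest E2 library was 1.15 times the highest control in idi1, 1.97 times in sqlea and 2.06 times in hmgcs1. In the authors' deposited table the log2 fold changes were 1.39 ± 1.02 for hmgcs1 (adjusted p = 0.508), 1.37 ± 1.06 for idi1 (0.544) and 1.41 ± 1.1 for sqlea (0.544).

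None of the remaining enzymes passed the test in E2. msmo1, a sterol methyl oxidase, had 107 and 216 normalised reads in control and 55.2 and 71.0 in E2 (-1.27 ± 1.09 in the authors' deposited table, adjusted p = 0.591). fdps, farnesyl diphosphate synthase, had 57.0 and 76.2 in control and 28.8 and 42.6 in E2 (-0.87 ± 1.15, adjusted p = 0.762). dhcr7, which carries out the last reduction to cholesterol, had 43.0 and 60.6 in control and 31.2 and 42.6 in E2 (-0.48 ± 1.16, adjusted p = 0.885). For dhcr7 the shallower E2 library rests on 3 reads and lies directly under the lower control. cyp51, lanosterol demethylase, had 15 and 126 in control and 74.5 and 156 in E2, so that the groups overlapped (0.61 ± 1.24, adjusted p = 0.859). lss, which closes the sterol rings, had 20 and 41 reads in control and 2 and 0 in E2. Its pooled level was 9.03-fold lower in E2, with an exact 95% interval of 2.40 to 76.3 that covers counting error only. The ratio of its means was 17.4-fold, and with 1 library left out the log2 ratio of normalised reads plus 1 ran from -5.42 without the deeper E2 library to -2.63 without the shallower control. The value of -5.42 rests on an E2 library with no lss read, so its size is set by the control mean and the 1 added. fdft1, squalene synthase, had 2 and 8 reads in control and 0 in both E2 libraries, which is under the level that 3 reads over the group would give, and a difference was not detectable at this depth.

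**Figure D2:**
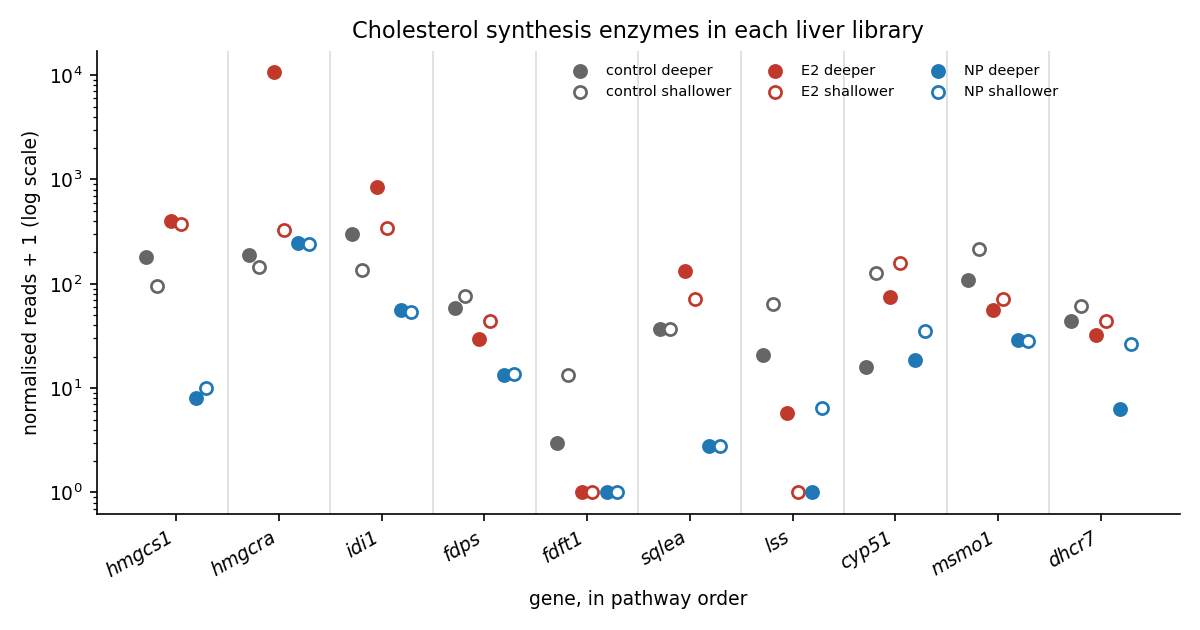
Normalised reads plus 1 (log axis) of the 10 enzymes in pathway order, 1 point per library. Filled points are the deeper and open points the shallower library of control (grey), E2 (red) and NP (blue). The filled red point of hmgcra, at 10767 normalised reads, stands apart from the open one at 327. The NP points lie below both controls in 8 of 10 genes, fdft1 with no NP read among them.

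NP was compared with control to ask whether a weak environmental estrogen acts on the same tissue. Of the 10 enzymes 1 fell, hmgcs1, 0 rose and 9 missed the threshold in the authors' deposited table (fdft1 had no adjusted p). Over all genes with an adjusted p, 2.94% passed, 1.26% upward and 1.68% downward. The direction was shared: 9 of 10 had a deposited log2 fold change below 0, where 53.5% of the 18067 genes with reads did. The exception was hmgcra. The median of the 10 was -2.25 in the authors' deposited table, or -2.01 with fdft1 at its bound, and that of all genes with reads was -0.08. Both NP libraries lay below both controls in 8 of 10 enzymes (23.2% of genes with at least 10 reads). fdft1, 1 of the 8, had no NP read and 2 and 8 reads in the deeper and shallower controls. An unadjusted p under 0.05 with a lower level was given for 6 of 10, hmgcs1, sqlea, msmo1, lss, idi1 and fdps, where 2.38% of genes with reads had one. Many genes with reads were too low for an adjusted p, which all 6 had. Of the 6799 genes with an adjusted p, 614 had an unadjusted p under 0.05 in either direction.

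hmgcs1 had 179 and 61 reads in the deeper and shallower controls and 4 and 5 in NP. These are 179 and 94.8 normalised reads in control and 7.05 and 9.07 in NP. Neither NP library came near the lower control, and the NP mean was 17.0-fold lower than the control mean. The log2 fold change in the authors' deposited table was -3.68 ± 0.85 (adjusted p = 0.00127), and leaving out any 1 of the 4 libraries gave log2 ratios of solved reads plus 1 between -4.31 and -3.40. Adjustment over all genes with a deposited p gave 0.00338. With limma-voom on the solved reads the log2 fold change was -3.90 ± 0.66, with an adjusted p of 0.160, in a fit that called 0 of 10727 genes, 730 having an unadjusted p under 0.05.

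The other genes with a low level in NP lay along the whole pathway. sqlea had 36 and 23 reads in control and 1 and 1 in NP, and its pooled level was 20.1-fold lower with an exact 95% interval of 5.32 to 170 for counting error. It missed the threshold at an adjusted p of 0.0745, as did msmo1 at 0.0748. msmo1 had 107 and 216 normalised reads in control and 28.2 and 27.2 in NP, a 5.83-fold lower mean (-2.34 ± 0.77 in the authors' deposited table). lss had 20 and 41 reads in control and 0 and 3 in NP, a pooled level 13.8-fold lower (4.52 to 69.0 by the same interval; adjusted p = 0.133 in the authors' deposited table). Its log2 ratio plus 1 ran from -5.42 without the shallower NP library to -2.50 without the shallower control. Here too -5.42 rests on a library with no lss read, and so on the 1 added. idi1 had 296 and 134 normalised reads in control and 54.6 and 52.6 in NP, 4.01-fold lower (-1.86 ± 0.74, adjusted p = 0.234 in the authors' deposited table). fdps had 57.0 and 76.2 in control and 12.3 and 12.7 in NP, 5.32-fold lower (-2.16 ± 0.88, adjusted p = 0.262). In these genes, lss excepted, the libraries of NP were close to each other. In none of them, lss included, did an NP library reach the lower control.

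fdft1, with 10 reads in control and none in NP, was at least 2.27-fold lower, taking 3 reads over the group (2.68 normalised reads) as the floor. This rests on the shallower control, which held 8 of the 10 reads: the level of the deeper control, 2 normalised reads, lies under the floor and gives no bound. dhcr7 had 43.0 and 60.6 normalised reads in control and 5.28 and 25.4 in NP (-1.54 ± 0.95, adjusted p = 0.762 in the authors' deposited table). cyp51 had 15 and 126 in control and 17.6 and 34.5 in NP, and the NP values fell between the 2 controls (-1.24 ± 0.96, adjusted p = 0.939). Its direction rested on the shallower control: without that library the log2 ratio of solved reads plus 1 was 0.76, and in E2 it was -0.13 without the deeper control. hmgcra had 187 and 143 in control and 245 and 241 in NP, 1.47 times the control mean (0.52 ± 0.68, adjusted p = 0.999). hmgcra was thus the only one of the 10 enzymes with both NP libraries above both controls, which 19.8% of genes with at least 10 reads showed.

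**Figure D3:**
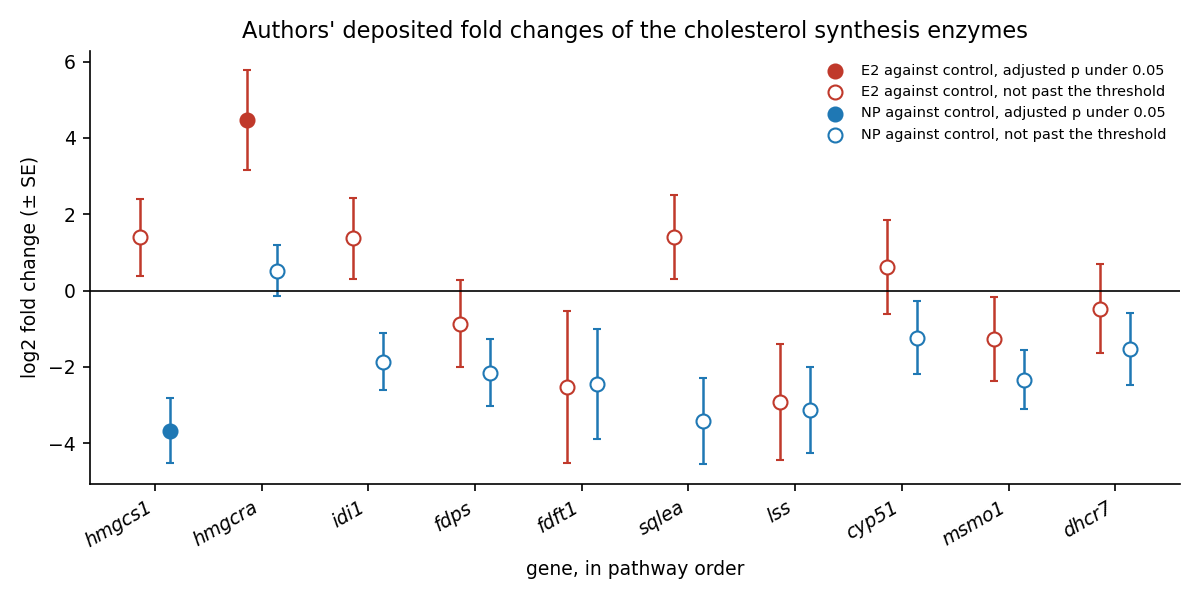
Log2 fold changes of the 10 enzymes in the authors' deposited tables for E2 (red) and NP (blue) against control, with bars of 1 SE. Filled points passed an adjusted p of 0.05, which holds for hmgcra at 4.47 in E2 and hmgcs1 at -3.68 in NP, and the NP points lie below 0 for every gene but hmgcra. The values of fdft1 rest on no treated read.

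The 2 comparisons share their controls, so the treated groups were also compared directly, at the unequal doses of 100 nM NP and 1000 nM E2. Both NP libraries lay below both E2 libraries in 8 of 10 enzymes (9.77% of genes with at least 10 reads), and the 2 others, fdft1 and lss, had at most 5 reads in the 4 libraries. By limma-voom on solved reads 0 of 10 enzymes and 0 of 10727 genes (0%) passed, while 1787 genes (16.7%) had an unadjusted p under 0.05, and limma on log2(normalised reads + 1) called 0 with 1775. hmgcs1, sqlea and idi1 were each above both controls in both E2 libraries and below both in both NP libraries, a pattern shown by 1.27% of genes. The log2 fold change of NP against E2 by limma-voom was -5.46 ± 0.67 in hmgcs1 (adjusted p = 0.0791), -5.24 ± 0.87 in sqlea (adjusted p = 0.104) and -3.43 ± 0.79 in idi1 (adjusted p = 0.133). hmgcra gave -3.26 ± 1.39 (adjusted p = 0.293 by limma-voom), with most of its E2 level in the deeper E2 library. Without a filter on low counts, limma-voom called hmgcs1 (adjusted p = 0.00680) and sqlea (0.0227) among 140 of 18391 genes (0.761%). hmgcs1 was also called without the deeper control library (0.0389), among 50 of 9427 genes (0.53%), and without the shallower one (0.0366), among 55 of 9901 (0.555%).

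Of 14 other cholesterol synthesis genes with reads, 4 had an adjusted p in E2 and 8 in NP, and 0 of these passed. The medians of the 14 were -1.03 in E2 and -0.92 in NP in the authors' deposited tables. The smallest p in E2 belonged to acat2, which makes the acetoacetyl-CoA used by hmgcs1 (-2.91 ± 1.24, adjusted p = 0.144), and tm7sf2, a sterol reductase (-3.25 ± 1.46, no adjusted p). In NP they belonged to ebp, a sterol isomerase (-1.95 ± 0.89, adjusted p = 0.410), and mvda, mevalonate diphosphate decarboxylase (-2.65 ± 1.33, no adjusted p), in the authors' deposited table. hmgcrb, the second HMG-CoA reductase gene, had log2 fold changes of 0.20 ± 1.3 in E2 and 0.12 ± 0.99 in NP in the authors' deposited tables. Reads shared between hmgcra and hmgcrb were not examined.

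Of the sterol sensing and SREBP pathway genes, 8 of 17 with reads had an adjusted p in E2 and 12 of 18 in NP, and 0 of these passed. The medians of those with reads were 0.39 and 0.19 in the authors' deposited tables. In E2 the smallest p was that of rnf145b (2.51 ± 1.1, adjusted p = 0.158), a ubiquitin ligase gene whose mammalian counterpart acts on HMG-CoA reductase or its regulators, and of 1 of 2 gene IDs named nr1h3, the liver X receptor (3.11 ± 1.64, no adjusted p), with 46 reads in the deeper E2 library and 0 in the shallower. In NP they were ldlra, an LDL receptor gene (0.80 ± 0.74), and insig1, which holds SREBP back when sterol is plentiful (0.95 ± 0.91), both with an adjusted p of 0.999 in the authors' deposited table.

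Among genes of cholesterol efflux, esterification and uptake, 2 of 14 fell in E2, abca1b and cetp, and 1 of 13 in NP, abca1b, in the authors' deposited tables, with medians of -2.07 and -0.04. Only 6 of the 14 and 10 of the 13 had an adjusted p, and over all genes with one 3.67% fell in E2 and 1.68% in NP. abca1b, a homologue of the ABCA1 transporter that loads cholesterol onto apolipoprotein A-I, had 344 and 43 reads in control, 2 and 0 in E2 and 3 and 7 in NP. The control libraries differed 5.15-fold in normalised reads, and every treated library lay below the lower of them. Its pooled level was 57.3-fold lower in E2, with an exact 95% interval of 15.8 to 475 for counting error (adjusted p = 0.0201 in the authors' deposited table). In NP the pooled level of abca1b was 26.4-fold lower, with an interval of 14.2 to 55.4 (adjusted p = 7.97e-04 in the authors' deposited table). By the ratio of means it was 85.5-fold lower in E2 and 22.8-fold lower in NP. cetp, a cholesteryl ester transfer protein gene, had 29 and 83 reads in control, 0 in E2 and 130 and 86 in NP, which is at least 11.1-fold lower in E2 (adjusted p = 0.0395 in the authors' deposited table). The cetp controls differed 4.45-fold, and the bound was 4.71-fold against the deeper and 20.9-fold against the shallower control alone. Of 6 bile acid synthesis genes with reads 3 had an adjusted p in each comparison, and 0 of these passed. The medians of the 6 were -1.34 in E2 and 1.42 in NP in the authors' deposited tables. Those with the smallest p were cyp8b1, a sterol hydroxylase (-3.65 ± 1.29, adjusted p = 0.0668), and amacr, a racemase (4.12 ± 1.53, adjusted p = 0.0855), in E2, and cyp27a7 (1.46 ± 0.78, adjusted p = 0.615) and cyp27a1.4 (2.25 ± 1.38, no adjusted p) in NP. Of the 13 E2 reads of amacr, 11 were in the shallower library. Of 11 genes of other isoprenoid branches, such as dolichol synthesis and protein prenylation, 2 had an adjusted p in E2 and 7 in NP, and 0 of these passed. The medians of the 11 were -0.47 and -0.44. Their smallest p belonged to pggt1b (-1.56 ± 1.42) and ggps1 (-1.24 ± 1.36) in E2 and to nus1 (-1.29 ± 0.85) and zmpste24 (-1.03 ± 0.91) in NP, in the authors' deposited tables.

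**Figure D4:**
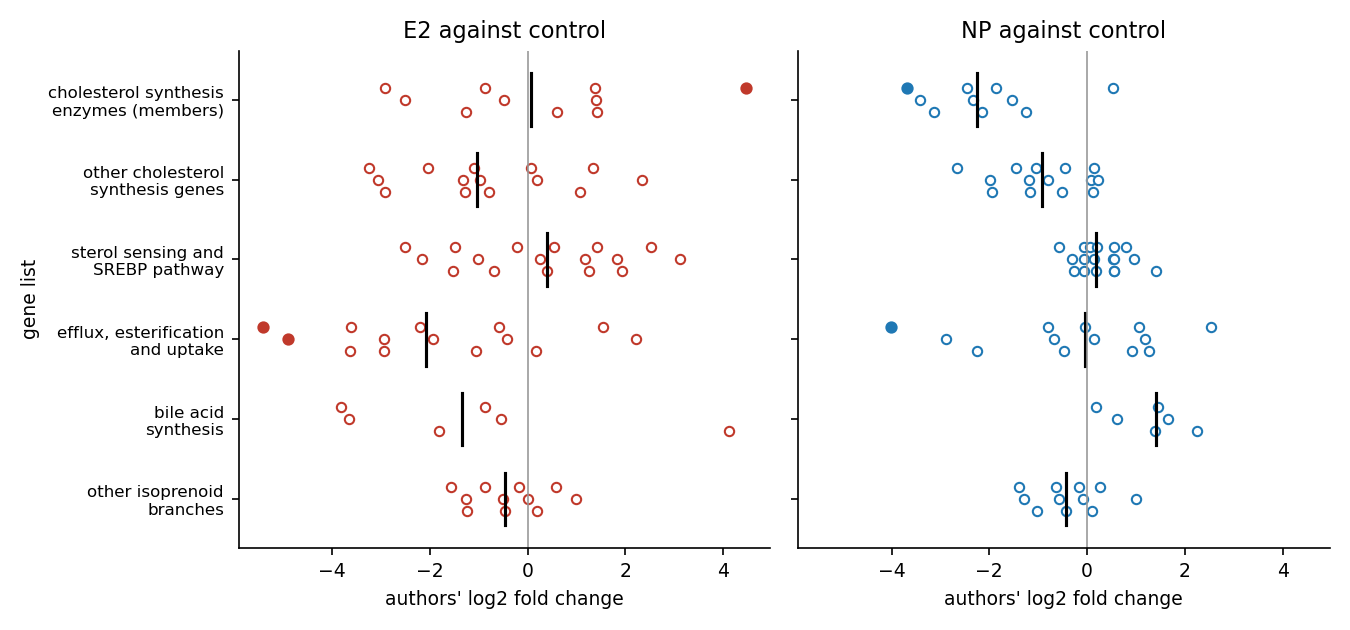
Log2 fold changes of the authors' deposited tables for the 10 enzymes and 5 lists of related genes, in E2 (left) and NP (right) against control, 1 point per gene with reads. Filled points passed an adjusted p of 0.05 and black bars are medians, which for the 10 enzymes are 0.06 in E2 and -2.25 in NP.

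Levels of cell type markers differed between groups in some lists and between the libraries of a group in others. All 15 hepatocyte markers had reads in each table, and 3 fell in E2 and 0 passed in NP in the authors' deposited tables. Of the 15, 14 lay below 0 in E2 (median -2.27), and 11 lay above and 4 below 0 in NP (median 0.84). Only 3 of the 15 were low enough to be solved, with summed normalised reads of 905 and 2540 in control, 319 and 909 in E2 and 4136 and 4362 in NP. The 3 differed: serpina1l had 193 and 1056 in control and 2737 and 2988 in NP. apoba had 383 and 1242 in control and 1127 and 1174 in NP, and ttr 329 and 243 in control and 271 and 200 in NP. Of 18 exocrine pancreas markers 3 rose in E2 and 16 in NP, and their summed normalised reads were 100.0 and 474 in control, 485 and 7090 in E2 and 28090 and 102355 in NP (deeper library first). Those of 11 macrophage and antigen-presenting cell markers were 3509 and 1626 in control, 965 and 242 in E2 and 1117 and 1707 in NP, with 3 falling in E2 and 4 in NP. Those of 9 intestine markers were 697 and 2758, 26.4 and 156, and 3407 and 3288, with 1 falling in E2 and 0 in NP. Most of each sum was apoa4b.1. The other 8 summed to 1 and 1046 in control, 4.80 and 14.2 in E2 and 8.81 and 7.26 in NP, so that the shallower control stood apart, led by fabp2 with 339 reads and anpepb with 165. Those of the 5 of 6 red blood cell marker genes that had reads were 128 and 97.9, 36.0 and 142, and 432 and 1214, with 0 called in E2 and 2 rising in NP. 0 of the solved markers of these lists were at 0 in all libraries. Their part in the levels of the 10 enzymes was not tested.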

How the data were processed

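Each deposited table is 1 comparison made by the authors (E2 or NP against control), with 32760 rows for 31953 gene IDs; identical repeats of an ID were used once. GRCz10 is the build, and TopHat2, HTSeq and DESeq2 the tools, in the submitters' processing notes, without versions. The deposited signal, per the file headers, is a gene's mean normalised read count over 4 libraries. The deposited log2 fold changes and standard errors come from the authors' fit, the deposited score is the fold change over its standard error, and the deposited p-values and adjusted p-values (given for 3241 genes in E2, from a mean of 12.6, and 6799 in NP, from 6.64) belong to that score. "Rose" and "fell" mean an authors' adjusted p under 0.05.

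A gene's mean adds up its reads, a read of a given library always adding the same amount. The 4 amounts of each table were read from its lowest means, and 6 whole counts per gene were solved from both means. The amounts give the size factors of each comparison, which were joined through the geometric mean of the controls. The ratio of the deeper to the shallower control factor was 1.57 in the E2 comparison and 1.54 in the NP comparison. All values of NP against E2 depend on this join. The solution was unique in 18391 of 18593 genes (98.9%), and these hold 43.0% and 37.1% of the summed means in the E2 and NP tables. The solved means had the sign of the deposited fold change in 12664 of 12664 genes (E2) and 11105 of 11105 (NP) past 0.5 in size. Of 1000 altered means of the enzymes, 100 per gene, 2 had a solution, both of hmgcra. Solving and limma were tested on simulated data, the solving only on genes with fewer reads than hmgcra.

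limma-voom (limma 3.58.1, R 4.3.3) fitted all 6 libraries, with at least 10 reads a gene and Benjamini-Hochberg adjustment over all genes. The planned edgeR and DESeq2 fits were not run. The deposited tables hold no counts, and limma-voom was the only count-based fit made on the solved reads. The authors' test is the main result, as the design provided. The alternative scalings, filter and left-out libraries are given in the closing section. Lists were matched by symbol, and 26121 IDs had a current name. The members, lists and rule for named genes (all calls of a list, else the 2 smallest p) were chosen with earlier results of these data known. Intervals and floors (3 reads) cover counting error only.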

Additional observations from a re-analysis of the deposited data

Results flagged for a closer look

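In hmgcs1, idi1 and sqlea both E2 libraries lay above both controls and both NP libraries below both, which 1.27% of 10727 genes with at least 10 reads showed (136 genes). The direct comparison of NP with E2 by limma-voom gave log2 fold changes of -5.46 (hmgcs1, adjusted p = 0.0791), -3.43 (idi1, adjusted p = 0.133) and -5.24 (sqlea, adjusted p = 0.104), so none of the 3 differences passed 0.05 after adjustment. The genes were singled out by this pattern, so it is a description.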

How the results depend on the processing

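The depth of the shallower E2 library (22145 solved reads) limits every E2 value. Of the enzymes, 1 was called in each comparison with control by the authors' test. In E2 the count was 0 after adjustment over all genes with a deposited p (hmgcra, 0.103), while in NP it stayed 1. It was 0 in both with limma-voom, with its TMM factors, without its filter on low counts and with limma on log2(normalised reads + 1). limma-voom itself called 2 of 10727 genes in E2 and 0 in NP, and without its filter 47 and 65 of 18391. Calls against control in fits with 1 library left out are not included in these counts. Without the shallower E2 library, limma-voom gave hmgcra a log2 fold change of 6.04 in E2. Without the deeper one, its log2 ratio of solved reads plus 1 was 0.98. For NP against E2 the count was 0, 2 without the filter (of 140 called among 18391 genes) and 0 to 1 with 1 library left out (0 to 55 genes called). TMM factors lowered all E2 fold changes by 0.22 (a shift of -0.22), which turned no enzyme's direction. The median fold change of all genes with an adjusted p was -0.22 in E2 and -0.03 in NP. Subtracting this median, or taking ratios of solved reads, kept the direction in 20 of 20 values in E2 and 20 of 20 in NP. Leaving out 1 library kept it in 39 of 40 and 39 of 40, cyp51 being the exception in both. In the limma fits with 1 library left out, fdft1, with no E2 read, also changed sign in E2 without the deeper E2 library. limma on log2 values and, against control, the TMM factors and the missing filter were chosen after seeing the data, and edgeR and DESeq2 were not run. With 1 library left in a group, limma takes it to vary like the other groups. The causes of these changes were not tested. No paired analysis was possible because the labels give no replicate numbers and solved libraries cannot be tied to samples.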
